A study of Mus musculus with 6 samples.

Results

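The 18 genes described here were those whose transcripts were lower in each of 3 Cdk6 knockout lines of mouse BCR-ABL positive cells than in each of 3 wild-type lines. They were chosen from 25965 rows of a count table by their values: the lowest of the 3 wild-type libraries held at least 5 CPM (counts per 1000000 counts of the library) and at least 1.3 times the CPM of the highest knockout library. Of 8975 genes with at least 5 CPM in every wild-type library, 23 met both thresholds (0.256%). Mgat4a, Cxcr3, Lyz2, Ffar2 and Ndrg1 met them but are left out by the rule, which also leaves out all symbols starting with Slc, Zfp or H2-. Without the left-out symbols, 18 of 8614 genes met the thresholds (0.209%). The mirrored thresholds, higher in every knockout library and with no symbol left out, were met by 41 of 8682 genes (0.472%). When the margin was required only between libraries with the same number (WT1 and KO1, and so on), 56 genes met the rule. The 18 are among them by construction. Since the difference between wild-type and knockout libraries chose the genes, it is given below as a description and was not tested. All 6 libraries served in the choice, so none was left for an independent check.

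The libraries were RNA-seq of total RNA from cell lines that all carry BCR-ABL, the fusion kinase of the Philadelphia chromosome. The wild-type lines (WT1 to WT3) had the Cdk6 genotype "wild type" and the knockout lines (KO1 to KO3) "knock out". Per the labels' protocols, cells received by electroporation either a control plasmid with Cas9 and GFP or one that also carried guides against CDK6 (its name ends in hCDK6del), GFP-positive cells were sorted and plated singly, and loss of the protein in the clones that grew out was checked by Western blot. Each line is thus a clone, and the sources used here do not say whether the clones came from the same parent culture. The spread given below is that between these lines.

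CDK6 is a kinase that binds D-type cyclins in the G1 phase of the cell cycle and phosphorylates the retinoblastoma protein, which releases E2F transcription factors. In blood cells it is also known to act on chromatin as a partner of transcription factors, among them AP-1, STAT and NF-kB proteins. BCR-ABL positive cells of this kind are a model of B-lymphoid leukemia, in which CDK6 is highly expressed.

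The transcript of Cdk6 itself did not separate the groups. It lay at 39.5, 45.0 and 55.8 CPM across WT1 to WT3 and at 42.1, 72.6 and 40.4 CPM across KO1 to KO3, so the groups overlapped. The log2 ratio of its WT to its KO mean was -0.15, and 0.18 without KO2. A gene-level count does not show the coding sequence, which was not examined here, and the reason for the overlap was not tested. Every direction below is between the libraries labelled WT and KO. All 13 defining markers of the B lineage were detected, with a summed level of 4948 to 5208 CPM in WT and 4494 to 5711 CPM in KO. Total counts ran from 17859519 (KO1) to 24108563 (WT1), so 3 counts, the floor used here for reading low values, corresponded to 0.124 to 0.168 CPM. KO2 stood apart: its Pearson correlation with the other libraries, over log2(CPM + 2) of the 10559 genes that averaged 1 CPM or more, was 0.883 to 0.945, while WT1 and WT3 correlated at 0.995. Each ratio of WT to KO means of the 18 genes is therefore also given without it. In RNA from whole cultures, fewer cells of a kind and less RNA per cell cannot be told apart.

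**Figure D1:**
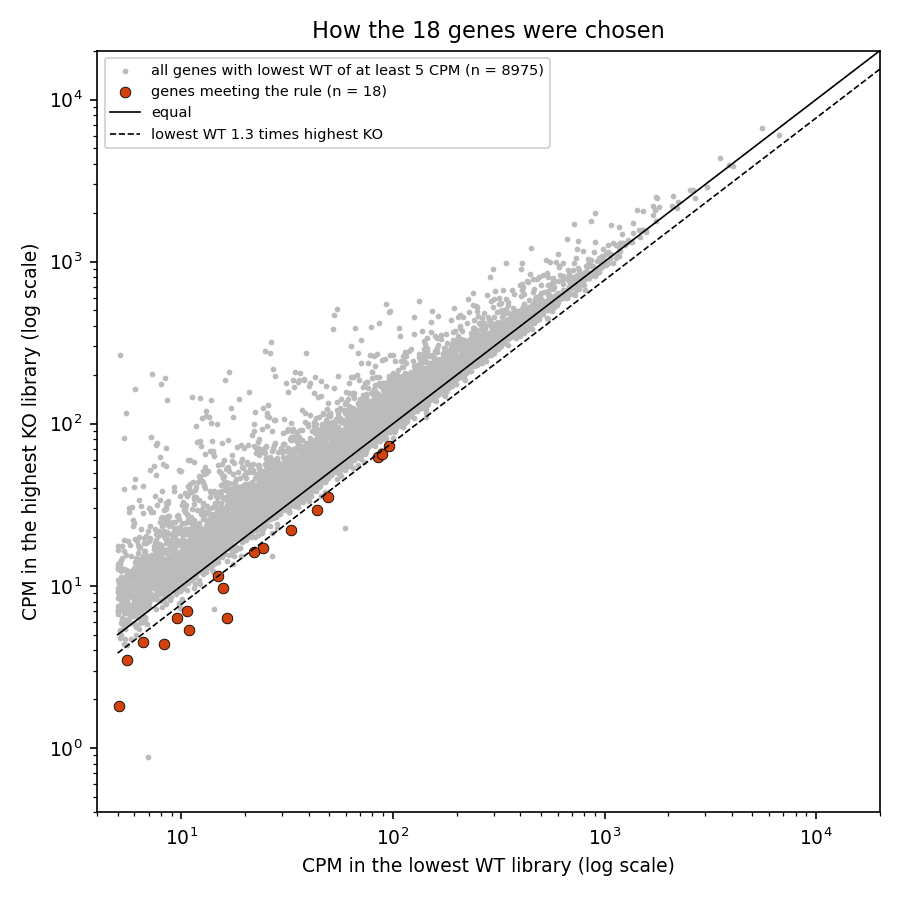
CPM in the lowest WT library (x axis, log scale) against CPM in the highest KO library (y axis, log scale) for the 8975 genes with at least 5 CPM in every WT library (grey) and the 18 genes of the rule (red). The red points lie below the dashed line that marks a ratio of 1.3, and most genes lie near or above the line of equality. Grey points below the dashed line are the genes the rule leaves out.

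Across the 18 genes the ratio of the lowest WT library to the highest KO library ran from 1.3 for Tmem40 to 2.79 for Calm4. The median log2 ratio of the WT mean to the KO mean was 1.46, beside -0.02 over all 8975 genes. The genes were expressed at low to moderate levels, with a median WT mean of 20.5 CPM against 55.9 CPM over all 8975. Per kilobase of annotated exon, the highest WT level was that of Bok (48.8 CPM per kb), followed by Fads2 (31.6) and Pld4 (29.9), and the lowest was that of Lrp1 (0.723). The genes are described below by what their products do, with GRCm38 locations from the GENCODE annotation.

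**Figure D2:**
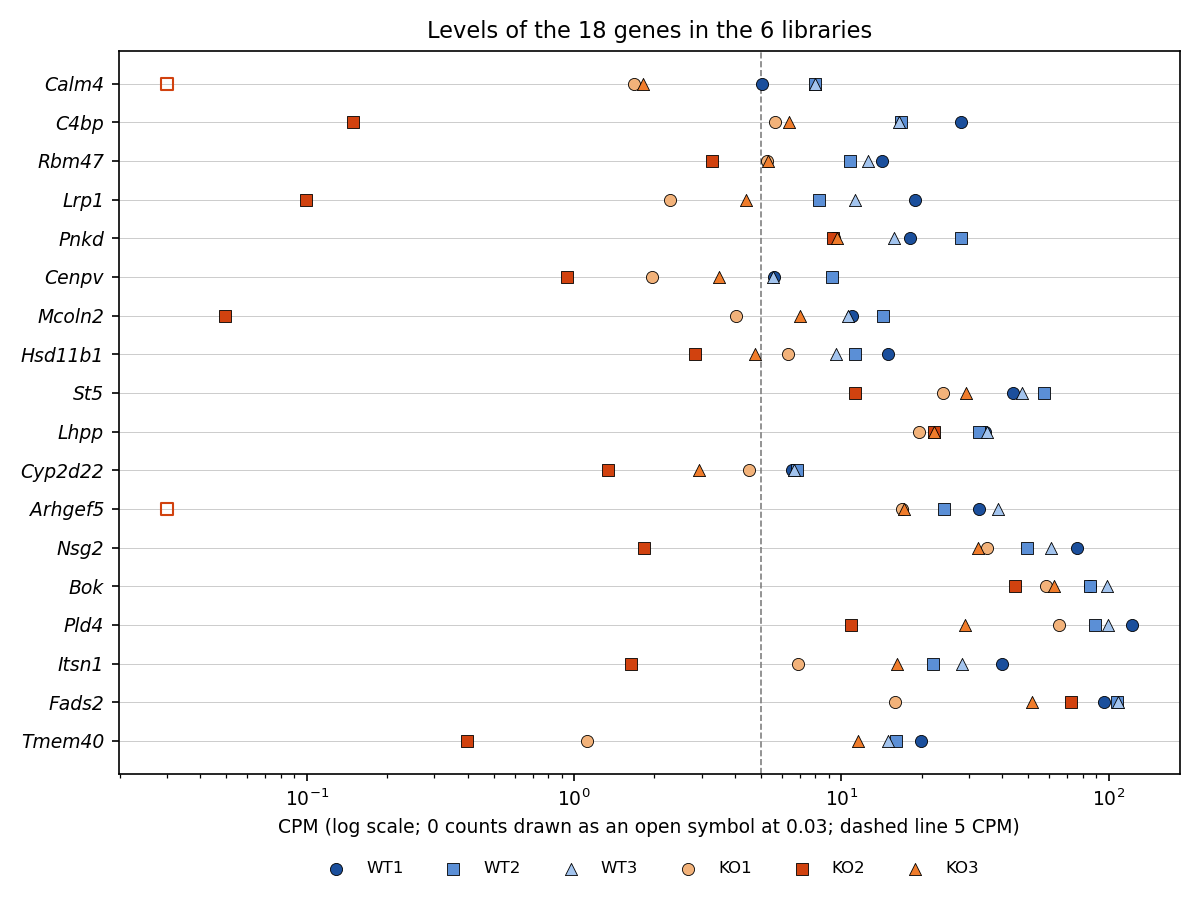
CPM (log scale) of each of the 18 genes in each library, WT in blue and KO in orange and red; open squares at the left are KO2 libraries with 0 counts, and the dashed line marks 5 CPM. All orange and red symbols of a gene lie to the left of its blue symbols, as the rule requires, and KO2 (red squares) is the leftmost for 16 of the 18 genes.

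Products at the cell surface or secreted came first among the functions. Lrp1 (chromosome 10, 127538161 to 127621148, minus strand) encodes a large endocytic receptor that takes up lipoproteins, protease complexes and other ligands, and its annotated transcript model with the most exons has 89 exons. It lay at 18.9, 8.24 and 11.3 CPM across WT1 to WT3 and 2.30, 0.0991 and 4.41 CPM across KO1 to KO3. WT1 was the highest and KO2, with 2 counts, the lowest. The means were 12.8 ± 5.50 CPM in WT and 2.27 ± 2.15 CPM in KO (SD, n = 3), a ratio of 5.65, or 3.82 without KO2. The log2 ratio was 2.50, and 3.42 without KO3. The promoter of Lrp1 held both an E2F and a STAT sequence and is printed here for that reason, in RefSeq's GRCm38.p6 sequence read 5′ to 3′ on the strand of the gene, with the matched letters in capitals (TTCCCAGAA for STAT, GCGCCAAA for E2F on the opposite strand).
Lrp1 promoter, chr10:127621149-127621398, minus strand: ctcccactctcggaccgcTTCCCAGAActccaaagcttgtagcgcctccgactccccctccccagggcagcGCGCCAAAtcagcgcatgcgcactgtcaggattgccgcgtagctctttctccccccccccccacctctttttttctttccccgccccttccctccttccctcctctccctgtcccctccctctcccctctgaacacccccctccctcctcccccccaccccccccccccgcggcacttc

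C4bp (chromosome 1, 130634773 to 130661632, minus strand) encodes C4b-binding protein, a soluble inhibitor of complement that is known mainly from plasma. Its level was 28.1, 16.8 and 16.4 CPM across WT1 to WT3 and 5.66, 0.149 and 6.37 CPM across KO1 to KO3. WT1 stood above WT2 and WT3, KO1 and KO3 lay close together, and KO2 had 3 counts. The WT mean was 5.03 times the KO mean, or 3.40 times without KO2. Other complement regulators near it in function did not separate the groups: Cd55, which speeds the decay of complement convertases on the cell surface, lay at 34.7, 25.1 and 32.5 CPM across WT1 to WT3 and 34.6, 31.4 and 39.7 CPM across KO1 to KO3. Cr1l, a membrane regulator of C3b and C4b, lay at a WT mean of 55.8 and a KO mean of 53.8 CPM.

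Tmem40 (chromosome 6, 115729131 to 115762410, minus strand) encodes a transmembrane protein whose role is poorly known. It had 19.8, 15.9 and 15.0 CPM across WT1 to WT3 and 1.12, 0.397 and 11.5 CPM across KO1 to KO3, the smallest margin of the 18 genes. KO1 and KO2 were far below all WT libraries, while KO3 stayed near WT3. The WT mean was 3.90 times the KO mean, or 2.68 times without KO2. Without KO3, the WT mean was a log2 ratio of 4.48 above the KO mean, against 1.96 with all libraries. Of the 15 genes with a promoter window, Tmem40 was the only one with the AP-1 sequence (TGACTCA, in capitals, 155 bases before the start of the window printed here). This window also held CCAAT at 33 and 28 bases before the start. That start is RefSeq's and lies outside the GENCODE gene, and no stretch after it was found in a GENCODE transcript of Tmem40. Another RefSeq window of Tmem40 (chr6:115759000-115759249), for which such a stretch was found, held no AP-1 sequence. It held CCAAT at 102 bases before its start.
Tmem40 promoter, chr6:115762467-115762716, minus strand: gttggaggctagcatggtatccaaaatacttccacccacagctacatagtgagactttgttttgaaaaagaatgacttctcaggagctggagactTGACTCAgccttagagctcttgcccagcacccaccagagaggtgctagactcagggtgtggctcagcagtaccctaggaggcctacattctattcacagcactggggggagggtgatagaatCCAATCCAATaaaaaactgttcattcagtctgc

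Several of the genes encode proteins of endosomes, lysosomes and vesicle traffic, the routes by which cells take up, sort and degrade membrane cargo. Pld4 (chromosome 12, 112760655 to 112768990, plus strand) encodes an endolysosomal nuclease of the phospholipase D family that trims single-stranded nucleic acids. It lay at 122, 89.2 and 99.4 CPM across WT1 to WT3 and 65.4, 10.9 and 29.1 CPM across KO1 to KO3. KO1 kept the highest KO level, KO3 was lower and KO2 the lowest, and the means were 104 ± 16.7 CPM in WT and 35.1 ± 27.7 CPM in KO (SD, n = 3). The ratio of means was 2.95, and 2.19 without KO2. As a log2 ratio it was 1.56, and 2.37 without KO1. Its relative Pld3, also a lysosomal nuclease, did not separate the groups, with 15.1, 14.6 and 17.2 CPM across WT1 to WT3 and 20.4, 5.45 and 25.8 CPM across KO1 to KO3; KO2 was its lowest library as well.

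Mcoln2 (chromosome 3, 146149833 to 146195513, plus strand) encodes TRPML2, a cation channel of recycling endosomes and lysosomes found in lymphoid and myeloid cells. Its level was 10.9, 14.3 and 10.6 CPM across WT1 to WT3 and 4.03, 0.0496 and 7.004 CPM across KO1 to KO3. WT1 and WT3 were close to each other and WT2 was higher, KO3 exceeded KO1, and KO2 had 1 count. Without KO2 the WT mean was 2.17 times the KO mean, against 3.23 with it. The log2 ratio was 1.69 with all libraries and 2.55 without KO3. Mcoln1, the widely expressed lysosomal channel of the family, went the other way, at 16.6, 17.5 and 17.1 CPM across WT1 to WT3 and 20.4, 18.04 and 22.4 CPM across KO1 to KO3, with all KO libraries above all WT libraries. Mcoln3 was at 2.31 to 4.52 CPM in WT and at 0.168, 0 and 3.53 CPM across KO1 to KO3, so its groups overlapped.

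Itsn1 (chromosome 16, 91729281 to 91920597, plus strand) encodes intersectin, a scaffold of clathrin-mediated endocytosis whose long form also activates the GTPase CDC42. It was found at 40.1, 22.0 and 28.3 CPM across WT1 to WT3 and 6.89, 1.64 and 16.2 CPM across KO1 to KO3. The WT libraries differed among themselves by a factor of 1.82, and KO3 lay closest to them. The ratio of the WT to the KO mean was 3.65, or 2.61 without KO2. On the log2 scale it was 1.87, and 2.82 without KO3. Its paralog Itsn2 lay at 158, 154 and 161 CPM across WT1 to WT3 and 159, 202 and 194 CPM across KO1 to KO3, and the endocytic genes Eps15 and Dnm2 likewise had overlapping groups.

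Nsg2 (chromosome 11, 32000463 to 32059202, plus strand), known from neurons as a protein of endosomal vesicles, lay at 76.3, 49.6 and 60.6 CPM across WT1 to WT3 and 35.2, 1.83 and 32.4 CPM across KO1 to KO3. KO1 and KO3 were alike, and KO2 was at 5.66% of KO3. The means were 62.2 ± 13.4 CPM in WT and 23.2 ± 18.5 CPM in KO (SD, n = 3), a ratio of 2.68, or 1.84 without KO2. Its relatives Nsg1 and Caly were at 0 in every library.

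Regulators of small GTPases and a calcium-binding protein formed a further set. Arhgef5 (chromosome 6, 43265582 to 43289320, plus strand) encodes an exchange factor that loads small GTPases with GTP and acts on the actin cytoskeleton and on migration. It lay at 32.6, 24.2 and 38.4 CPM across WT1 to WT3 and 16.9, 0 and 17.1 CPM across KO1 to KO3. KO1 and KO3 were nearly equal, and in KO2 no read was counted, which allows up to 0.149 CPM at 3 counts. The ratio of means was 2.80, and 1.86 without KO2. No other exchange factor of its subfamily that was examined (Arhgef15, Arhgef16, Arhgef19, Arhgef26, Ngef) reached 1 CPM in any library. The promoter of Arhgef5 was the only one of the 15 with the EBF sequence (in capitals, 96 bases before the RefSeq start of the window). The GENCODE start lies before the RefSeq one, and the stretch printed ends before both.
Arhgef5 promoter, chr6:43265394-43265581, plus strand: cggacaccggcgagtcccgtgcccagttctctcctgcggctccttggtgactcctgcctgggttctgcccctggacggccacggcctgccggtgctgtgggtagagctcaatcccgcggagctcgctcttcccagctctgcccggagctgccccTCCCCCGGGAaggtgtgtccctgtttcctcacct

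St5 (chromosome 7, 109523911 to 109703605, minus strand; now named Dennd2b) encodes a DENN domain protein, a family that activates Rab GTPases of vesicle traffic. It lay at 43.8, 57.3 and 47.2 CPM across WT1 to WT3 and 24.1, 11.3 and 29.3 CPM across KO1 to KO3. The KO2 value was the lowest and the WT2 value the highest, and the means were 49.4 ± 7.03 CPM in WT and 21.6 ± 9.28 CPM in KO (SD, n = 3). The ratio was 2.29, and 1.85 without KO2. Dennd2d, of the same family, was higher in every KO library, at 74.6, 100.3 and 79.1 CPM across WT1 to WT3 and 109, 134 and 152 CPM across KO1 to KO3. Next to St5, 0.073 kb from its 5′ end, D930014E17Rik lay at 22.6, 25.5 and 20.1 CPM across WT1 to WT3 and 13.6, 0 and 19.7 CPM across KO1 to KO3. Its groups did not overlap either, although WT3 and KO3 were nearly equal.

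Calm4 (chromosome 13, 3837757 to 3838673, plus strand) encodes a calmodulin-like protein known mainly from skin, in a gene of 1 exon. It had 5.06, 7.97 and 8.003 CPM across WT1 to WT3 and 1.68, 0 and 1.81 CPM across KO1 to KO3, or 122 to 162 counts in WT, 30 and 37 counts in KO1 and KO3 and 0 in KO2, which allows up to 0.149 CPM. This was the widest margin of the 18 genes, at a level close to the minimum of 5 CPM. The WT mean was 6.03 times the KO mean, and 4.02 times without KO2. Calm2 and Calm3, which encode the general calcium sensor, had log2 ratios of WT to KO means of -0.01 and 0.16, and their groups overlapped.

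Enzymes of lipid, steroid and small-molecule metabolism made up the next set. Fads2 (chromosome 19, 10062765 to 10101746, minus strand) encodes the delta-6 desaturase that starts the conversion of essential fatty acids to long polyunsaturated ones. It lay at 96.2, 107 and 108 CPM across WT1 to WT3 and 15.9, 72.5 and 51.9 CPM across KO1 to KO3. Here KO1 was the lowest and KO2 the highest of the KO libraries, unlike in most of the other genes. The means were 104 ± 6.83 CPM in WT and 46.8 ± 28.6 CPM in KO (SD, n = 3), a ratio of 2.22, or 3.07 without KO2. With edgeR's RLE scaling in place of column totals Fads2 missed the margin. Fads1, the delta-5 desaturase encoded beside it, lay at 139.8, 140.4 and 151 CPM across WT1 to WT3 and 115, 93.1 and 148 CPM across KO1 to KO3, and its groups overlapped. Of the 32 genes on the list of cholesterol and fatty acid synthesis with at least 5 CPM in every WT library, 4 had all KO libraries below all WT libraries and 2 had all above, beside 9.53% below and 11% above among all 8975 genes. Fads2 was the only one of the 32 to meet the rule.

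Hsd11b1 (chromosome 1, 193221634 to 193264075, minus strand) encodes the enzyme that regenerates active glucocorticoid from its inert keto form. Its level was 15.0, 11.3 and 9.58 CPM across WT1 to WT3 and 6.33, 2.83 and 4.75 CPM across KO1 to KO3. The ratio of the WT to the KO mean was 2.58, and 2.16 without KO2. The glucocorticoid receptor gene Nr3c1 lay at 99.4 ± 9.24 CPM over WT and 98.8 ± 23.9 CPM in KO (SD, n = 3). H6pd, which supplies the cofactor of HSD11B1, and the receptor's targets Tsc22d3 and Fkbp5 had log2 ratios of -0.15, -0.44 and 0.19, and in each the groups overlapped.

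Cyp2d22 (chromosome 15, 82370527 to 82380260, minus strand) encodes a cytochrome P450, an oxidizing enzyme of drugs and other small molecules. It lay at 6.55, 6.82 and 6.67 CPM across WT1 to WT3 and 4.54, 1.34 and 2.94 CPM across KO1 to KO3. The WT libraries were nearly equal, with a highest to lowest ratio of 1.04, and the means were 6.68 ± 0.134 CPM in WT and 2.94 ± 1.60 CPM in KO (SD, n = 3). The ratio of means was 2.27, and 1.79 without KO2. The gene belongs to a family of near copies that may share reads, and the relatives examined (Cyp2d9, Cyp2d10, Cyp2d26, Cyp2d34) were at 0 in every library.

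Lhpp (chromosome 7, 132610638 to 132706420, plus strand), a phosphatase that acts on phosphohistidine, had the smallest ratio of means: 34.2 ± 1.21 CPM in WT and 21.3 ± 1.53 CPM in KO (SD, n = 3), a ratio of 1.60, or 1.64 without KO2. Its libraries lay close together within each group, at 34.4, 32.8 and 35.2 CPM across WT1 to WT3 and 19.5, 22.2 and 22.2 CPM across KO1 to KO3. KO1, not KO2, was the lowest. Pnkd (chromosome 1, 74284930 to 74353694, plus strand), of the metallo-beta-lactamase fold, lay at 18, 28.0 and 15.8 CPM across WT1 to WT3 and 9.35, 9.32 and 9.65 CPM across KO1 to KO3. Its KO libraries were nearly identical, with an SD of 0.183 CPM, while WT2 exceeded WT1 and WT3, and the ratio of means was 2.18, or 2.17 without KO2. The Pnkd locus overlaps Tmbim1 on the opposite strand. Without knowledge of the strand setting, reads of both genes cannot be told apart, and Tmbim1 itself had a WT mean of 43.7 and a KO mean of 40.1 CPM. In the GENCODE annotation, which holds long models, Itsn1 also overlaps Atp5o, Lhpp overlaps Fgfr2 and Hsd11b1 overlaps Lamb3; by the RefSeq positions used below for neighbors, Atp5o lies 4.63 kb from Itsn1 and Lamb3 30.3 kb from Hsd11b1. Ethe1, a mitochondrial sulfur dioxygenase of the same fold as Pnkd, came just short of the rule, at 163, 145 and 144 CPM across WT1 to WT3 and 102, 54.9 and 111 CPM across KO1 to KO3. Hagh, also of that fold, lay at 9.71, 11.4 and 8.35 CPM across WT1 to WT3. Across KO1 to KO3 it lay at 14.1, 9.32 and 11.7 CPM, and its groups overlapped.

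The remaining genes act in RNA editing, chromosome biology and cell death. Rbm47 (chromosome 5, 66016549 to 66173118, minus strand) encodes an RNA-binding protein, a cofactor of C-to-U RNA editing by APOBEC1. It was at 14.1, 10.8 and 12.6 CPM across WT1 to WT3 and 5.26, 3.27 and 5.34 CPM across KO1 to KO3. All KO libraries were at less than the lowest WT library by a ratio of at least 2.02, and the means were 12.5 ± 1.67 CPM in WT and 4.62 ± 1.17 CPM in KO (SD, n = 3). The ratio of means was 2.70, and 2.36 without KO2. Its relatives Syncrip and Hnrnpr, which encode widely expressed RNA-binding proteins, had log2 ratios of 0.08 and 0.04 with overlapping groups. Of 32 genes on the list of RNA binding and splicing with at least 5 CPM in every WT library, 7 had all KO libraries below all WT libraries (21.9%, against 9.53% of all 8975 genes), 3 had all above, and Rbm47 alone met the rule.

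Bok (chromosome 1, 93685660 to 93695764, plus strand) encodes a BCL2 family protein that can permeabilize the outer mitochondrial membrane. It lay at 85.1, 85.4 and 98.8 CPM across WT1 to WT3 and 58.5, 44.8 and 62.3 CPM across KO1 to KO3. The means were 89.7 ± 7.82 CPM in WT and 55.2 ± 9.21 CPM in KO (SD, n = 3), a ratio of 1.63, or 1.49 without KO2. The other effectors of the family, Bax and Bak1, had log2 ratios of -0.04 and -0.03, and their groups overlapped. Of the 23 genes with at least 5 CPM in every WT library on the list of survival and death genes, which did not hold Bok, 1 had all KO libraries below all WT libraries and 5 had all above, where 9.53% and 11% of all 8975 genes did. Cenpv (chromosome 11, 62524946 to 62539261, minus strand) encodes a centromere protein needed for chromosome alignment and cytokinesis. It lay at 5.60, 9.23 and 5.53 CPM across WT1 to WT3 and 1.96, 0.942 and 3.48 CPM across KO1 to KO3, and WT1 and WT3 were close to the minimum of 5 CPM. The ratio of means was 3.19, and 2.50 without KO2. The list of mitosis, kinetochore and cytokinesis, which did not hold Cenpv, had 53 genes with at least 5 CPM in every WT library. Of these, 2 had all KO libraries below all WT libraries and 4 had all above, where 9.53% and 11% of all 8975 genes did. None of the 53 met the rule, beside 0.209% of all genes, a share too small for so short a list to show a difference.

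**Figure D3:**
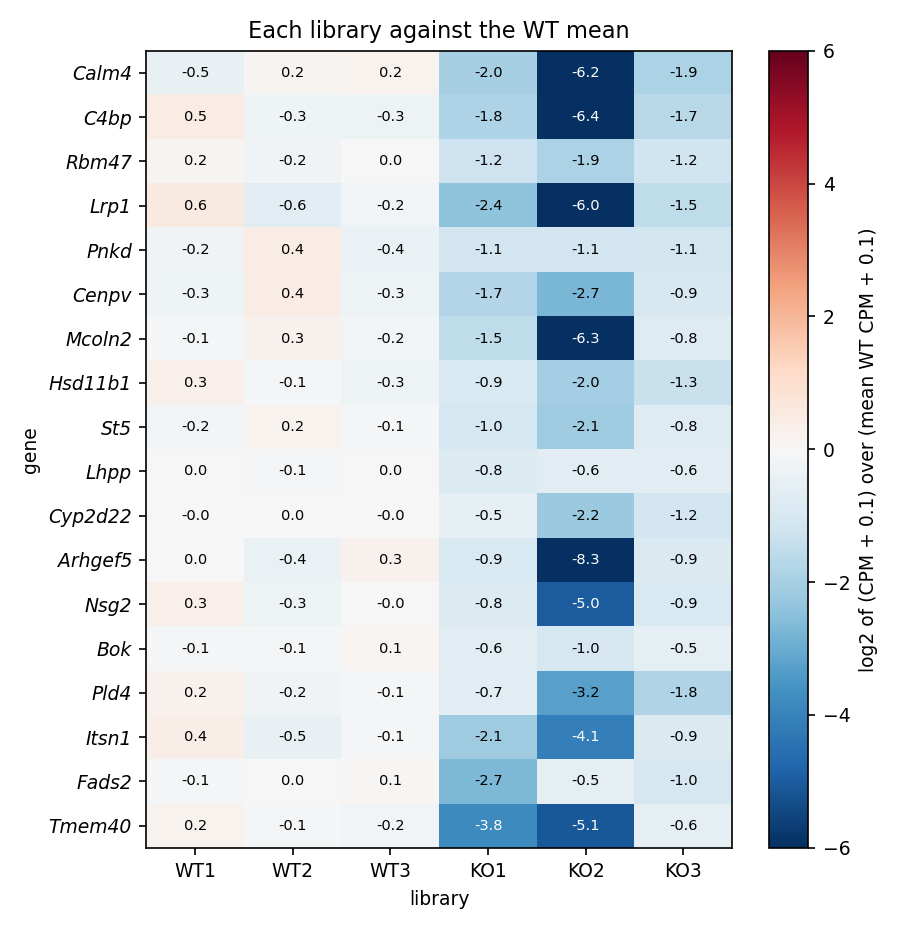
log2 ratio of each library (columns) to the mean of the WT libraries for the 18 genes (rows), with 0.1 CPM added to both; red is above and blue below the WT mean, and the color scale ends at 6 in both directions. The KO2 column is the darkest for most genes, Fads2 and Tmem40 are low in KO1, and Lhpp, Bok and Pnkd are low to a like degree in all 3 KO libraries.

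The KO lines were not equally low. Against the WT mean, with 0.1 CPM added, the median log2 ratio over the 18 genes was -1.18 in KO1, -2.98 in KO2 and -0.97 in KO3, while the WT libraries lay between -0.08 and 0.03. KO2 was the lowest KO library in 16 of the 18 genes (88.9%), KO1 in Lhpp and Fads2, and KO3 in none. Over all 8975 genes KO2 was the lowest KO library in 52.5%. In 12 of the 18 genes KO2 held less than 50% of the lower of KO1 and KO3, which was so in 6.34% of all 8975. The rule requires low values in KO2, so these shares were partly fixed by the choice of the genes and were not tested. In Calm4, C4bp, Lrp1, Mcoln2 and Arhgef5, KO2 had between 0 and 3 counts, as did 93 of the 8975 genes (1.04%). The highest KO library, which set the margin, was KO3 in 13 genes, KO1 in 4 and KO2 in 1. The lowest WT library was WT1, WT2 and WT3 in 5, 7 and 6 genes. The spread within the KO group exceeded that within the WT group in 17 of the 18 genes as a coefficient of variation, with medians of 70.1% and 19.2%; over all 8975 genes it did so in 7557, with medians of 14.2% and 6.18%.

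Without KO2 the ratio of the WT to the KO mean ran from 1.49 (Bok) to 4.02 (Calm4), and with it from 1.60 (Lhpp) to 6.03 (Calm4). Leaving out KO2 can only add genes to the rule: 69 genes met it on the other 5 libraries, among them all 18. Leaving out KO1 or KO3 gave 63 and 56.

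The genes lay on 12 chromosomes, with 4 on chromosome 1 (Pnkd, Bok, C4bp and Hsd11b1), 2 each on chromosomes 6, 7 and 11 and 1 on each of the others. No gene of the rule lay within 100 kb of another: the closest, Pnkd and Bok, were 19331966 bases apart. Each gene was also set beside the other genes within 5 Mb on either side that had at least 5 CPM in every WT library, as the median log2 ratio of a KO library to the WT mean. Around 16 of the 18 genes this median was between -0.21 and 0.01 in KO2, and the neighborhoods of Calm4 (0.57 over 9 genes) and Tmem40 (0.68 over 51 genes) were higher in KO2, where Calm4 was at 0 and Tmem40 at 0.397 CPM. In KO1 and KO3 the medians ran from -0.06 to 0.15. Of the 36 nearest such genes, 1 on each side of every gene of the rule, 6 had all KO libraries below all WT libraries, 4 had all above and 26 overlapped, and their median log2 ratio of WT to KO means was 0.01. Among all 8975 genes, 9.53% had all KO libraries below and 11% all above. The 6 were Net1 beside Calm4, Rhoh beside Rbm47, D930014E17Rik beside St5, Snrnp25 beside Nsg2, Atp5o beside Itsn1 and Fth1 beside Fads2. Fth1, the heavy chain of the iron store ferritin, lay at 819.5, 939.9 and 812 CPM across WT1 to WT3 and 671, 588 and 524 CPM across KO1 to KO3.

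Relatives of the genes, either family members or genes linked by function, were listed after the genes were known. They lay near 0 in the median. Of 61 listed relatives, 34 had at least 5 CPM in every WT library. Cenpv and Tmem40 had no listed relative, and no relative of Cyp2d22, Arhgef5 or Nsg2 reached that level. In 5 of the 34, among which were Lrp8, Ethe1 and Pgp, every KO library lay below every WT library. In Lrp6, Mcoln1 and Dennd2d all lay above, and 26 overlapped. The median log2 ratio of WT to KO means over the 34 was 0.03, and none met the rule. Among the relatives of Lrp1, Lrp5, a receptor of WNT signaling, lay at 65.7, 50.8 and 71.7 CPM across WT1 to WT3 and 42.8, 0.0991 and 65.8 CPM across KO1 to KO3, near 0 in KO2 only.

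**Figure D4:**
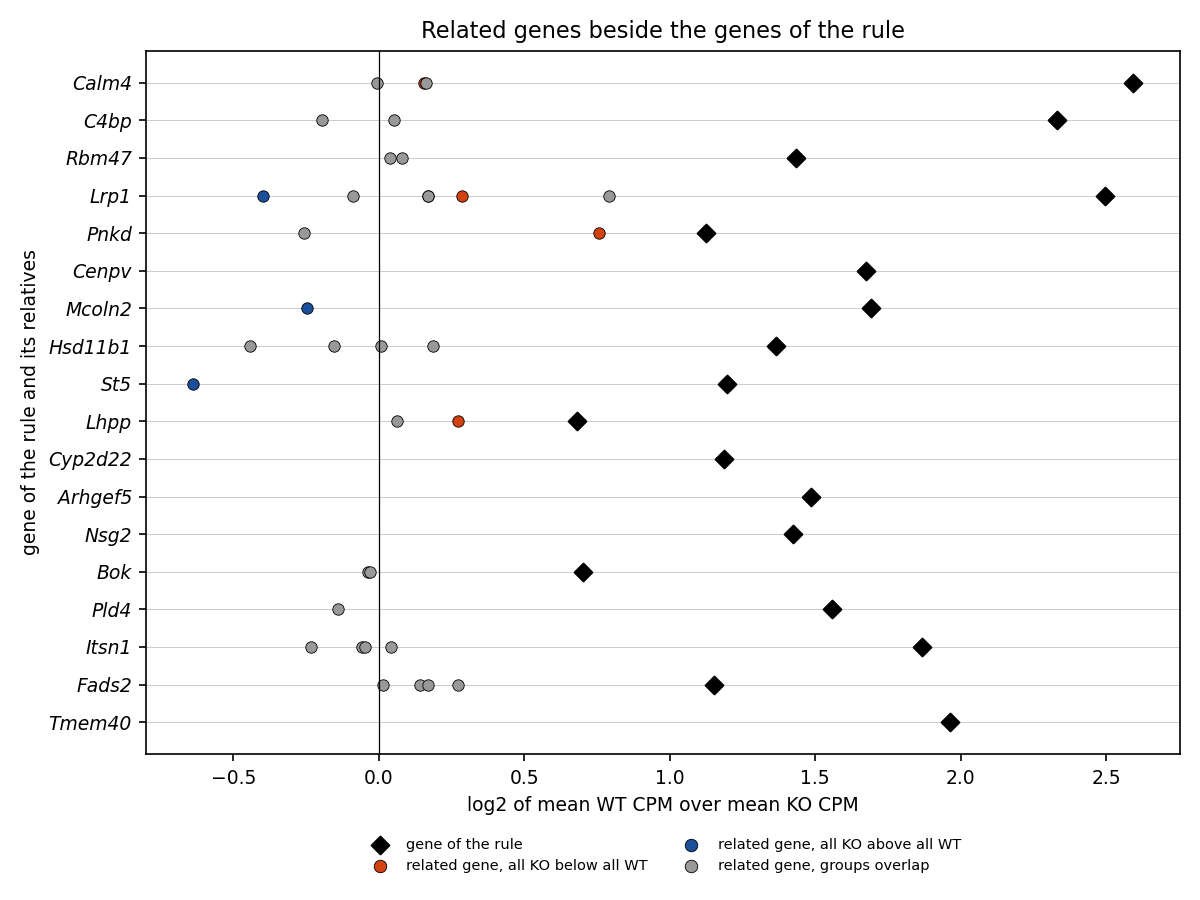
log2 ratio of mean WT CPM to mean KO CPM (x axis) for each of the 18 genes (black diamonds) and for its relatives with at least 5 CPM in every WT library (circles, colored by whether the groups separate). The diamonds lie between 0.68 and 2.59 by choice, and the 34 circles lie around 0, from -0.64 for Dennd2d to 0.79 for Lrp5. Cenpv, Tmem40, Cyp2d22, Arhgef5 and Nsg2 have no circle.

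The genes were also set against 37 lists of pathways and cell types with 1444 genes. Of the 1016 list genes with at least 5 CPM in every WT library, 2 (0.197%) were genes of the rule, Rbm47 and Fads2, beside 0.209% of all genes. The other 16 were on no list. The lists nearest in function to the endosomal, channel and GTPase genes had shares below all WT libraries on either side of the 9.53% of all genes: 3 of 33 for lysosome, endosome and vesicle traffic, 4 of 30 for ion channels and calcium, and 9 of 61 for the actin cytoskeleton and migration. Markers of other cell types were checked beside the genes. Of the 12 myeloid markers S100a8, S100a9 and Elane were at 0 in every library and 7 reached 1 CPM in a library. Their sum was 172 to 214 CPM in WT and 204 to 298 CPM in KO, most of it from Cybb, an oxidase subunit that B cells also express and that was higher in every KO library. Fcgr3 was high in KO2 only, at 85.55 CPM against at most 12.01 CPM in any other library. Itgam was high in KO1 only, at 29.45 CPM against at most 4.898 CPM in any other library. Lyz2 was lower in every KO library, and without it the sums were 145 to 177 CPM in WT and 189 to 283 CPM in KO. Cd14, at no more than 1.41 CPM in any library, was nearly equal in WT3 and KO3 (0.395 and 0.392 CPM). Of the 6 T cell markers with a row only Lck reached 1 CPM, and Cd4, Cd8a and Cd3e were at 0. Lck, a kinase of lymphocytes, had 64.4 to 66.5 CPM across the WT libraries, 81.8 in KO1, 48.1 in KO3 and 0.397 in KO2. The erythroid and megakaryocyte markers summed to 4.30 to 5.68 CPM over WT and 0.942 to 7.90 CPM over KO. No fibroblast or endothelial marker reached 1 CPM in any library. The part of other cell types in the differences was not tested.

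Promoter windows from 250 bases before to 50 after an annotated start were given in RefSeq for 15 of the 18 genes. They were searched on both strands for 11 sequences, and 9 genes held at least 1. E2F sequences (TTTCCCGC, TTTGGCGC, TTTCGCGC or TTTGCCGC) were found in 1 of the 15 genes, Lrp1, beside 5.47% of 6579 genes with at least 5 CPM in every WT library and a window, and 2.27% of all 32851 windows. The STAT sequence TTCNNNGAA was found in Lrp1 and Nsg2 (8.18% of the 6579 genes and 8.30% of all windows); for neither window of Nsg2 was the sequence after the start found in a GENCODE transcript. Next came the AP-1 sequence TGANTCA in Tmem40 (5.23% and 7.81%) and the MYC E-box CACGTG in Mcoln2 (12.8% and 7.15%). For the Tmem40 window with the AP-1 sequence, the sequence after the start was not found in a GENCODE transcript either. The EBF sequence was found in Arhgef5 (1.19% and 0.904%) and the PU.1 sequence GAGGAAGT in Pld4 (4.00% and 3.20%). CCAAT was found in 5 genes, Calm4, Hsd11b1, Nsg2, Itsn1 and Tmem40, or 33.3% of the 15 (44.1% and 37.4%). The ETS sequence CCGGAAG was in none of the 15, against 23.6% of the 6579 genes and 8.86% of all windows. The CRE sequence TGACGTCA (3.94% and 1.79%), the NF-kB sequence (0.517% and 0.411%) and the RUNX sequence TGTGGTTT (1.37% and 1.78%) were also in none. A match is a description of letters in this window. The median observed to expected ratio of CpG in the first window of each gene was 0.673 in the 15 and 0.805 in the 6579 genes.

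At the edges of the rule, the genes just inside the ratio of 1.3 were Tmem40 (1.3), Fads2 (1.33), Itsn1 (1.36), Pld4 (1.36) and Bok (1.37). Just outside were Ethe1 (1.295), Spsb1 (1.289), Inpp5a (1.283), Aldh3b1 (1.28) and Ung (1.278). Ung, the uracil glycosylase of base excision repair, lay at 90.6, 93.5 and 88.2 CPM across WT1 to WT3 and 69.0, 60.2 and 63.0 CPM across KO1 to KO3, and Inpp5a, an inositol phosphatase of calcium signaling, at 18.5, 17.5 and 18.5 CPM across WT1 to WT3 and 13.7, 13.1 and 13.6 CPM across KO1 to KO3. Both had tight groups, and their margin missed the threshold by little. On the side of the minimum level, Calm4 (5.06 CPM in its lowest WT library), Cenpv (5.53) and Cyp2d22 (6.55) were just inside. Of the genes that met the ratio, 2010300C02Rik (4.93 CPM in WT2), Olfml2b (3.86 in WT1) and Dock4 (3.83 in WT2) were just outside. 2010300C02Rik had 9.12, 4.93 and 5.73 CPM across WT1 to WT3 and 0.280, 0.0496 and 0 CPM across KO1 to KO3, a margin wider than that of any of the 18 genes, with 5, 1 and 0 counts in KO1, KO2 and KO3.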

How the data were processed

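RNA-seq was measured in 6 libraries, WT1 to WT3 and KO1 to KO3. The deposited table holds raw counts per gene symbol, 1 column per library, matched to samples by the labels. The submitters' processing notes name DESeq2, STAR, Trim Galore and GRCm38, without roles or versions. The counting program, annotation and strand setting were not given in the sources used here. Of the 25965 rows, 66 repeat a symbol and stayed separate.

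CPM was computed from column totals, the rule applied, and values described with Python 3.11.15 and pandas 2.3.3; TMM and RLE factors came from edgeR 4.0.16 in R 4.3.3. The genes, lists and relatives were chosen with earlier results of these data known. Relatives were listed by family and function once the genes were known, before their own values were read. Every gene of the rule, Cdk6 and up to 5 genes on either side of each threshold are named with values; relatives, neighbors and markers were named by position on their lists or after their values were seen. No test was made on the contrast that chose the genes. Some relatives and markers are not reported here by name. The rule was tested on simulated data. This checks the code only, since the simulated libraries did not carry the spread between these lines. Chi-square per gene between replicate libraries was 6.14 (WT1, WT3) to 147.9, so none was a repeat deposit.

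WT and KO share replicate numbers. Deviations from group means correlated across genes at 0.44, 0.71 and 0.51 for numbers 1, 2 and 3, each over the criterion of 0.1. Same-numbered libraries were therefore taken as pairs. However, the r of WT1 with KO3 was 0.50 and that of WT3 with KO1 was 0.48. These values thus do not tell numbers 1 and 3 apart. Between number 2 and the other numbers r was -0.63 to -0.56. The main values do not use the pairing, and the count within pairs is given beside them. Counting errors alone set the floor of 3 counts. Sequence and promoter tables were RefSeq's (GRCm38.p6), and a stretch of the 50 bases after the start was found in a transcript of the same gene for 15 of 19 windows. The other genes (St5, Lhpp and Cyp2d22) had no window.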

Additional observations from a re-analysis of the deposited data

How the results depend on the processing

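With TMM scaling 25 genes met the rule, all 18 among them, and with RLE 23 did, without Fads2. The mirrored rule gave 35 and 37 against 41. The median log2 ratio of the 18 genes ran from 1.10 (without WT2 and KO2) to 1.65 (without KO1) against 1.46. Of the 162 values of single genes under other scalings or with libraries left out, 161 moved by less than their spread. The exception was Tmem40 without KO3 (4.48). Of the values 0 changed direction, but leaving libraries out cannot reverse it, since the rule holds between every WT and every KO library. The spread (SD) ran from 0.116 in Lhpp, beside a log2 ratio of 0.681, to 2.08 in Tmem40, beside 1.96. Where the spread is as wide as the ratio, staying within it says little. Within that spread, log2 ratios still moved by over 1.5 times in fold for Lrp1 (3.42), Itsn1 (2.82) and Mcoln2 (2.55) without KO3, for Pld4 (2.37) without KO1, and for Calm4 (1.90), Cenpv (1.03) and Mcoln2 (0.97) without WT2 and KO2.

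The number of genes follows the thresholds. A ratio of 1.2 gave 39 and a ratio of 1.5 gave 8 (mirrored 97 and 11). Minimums of 3 counts and 1 CPM gave 104 and 49, and the mirrored rule gave 84 with 3 counts and 26 with 10 CPM. Leaving out 1 library, which loosens the rule by construction, gave 27 (without WT1) to 69 (without KO2), with 53 and 30 without WT2 and WT3 and 63 and 56 without KO1 and KO3; the mirrored rule gave 53 to 190. Without WT2 and KO2 together 109 and 262 genes met the rules.

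With the replicate number as a block, that is a margin of 1.3 within each same-numbered pair only, 56 genes met the rule. The mirrored rule was met by 130. The block loosens the rule by construction, so all 18 had to be among the 56. No test was made, so no call could change with the block. KO2 holds the lowest value of most of the genes and 0 to 3 counts in 5 of them, so depth limits how low those can be read. With 3 lines a group, each a clone, the spread is that between these lines.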
